A study of Mus musculus with 8 samples.

Results

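The genes described here are 9 members of the bone morphogenetic protein (BMP) pathway: the antagonists Grem1 and Fst, the ligands Bmp2 and Bmp4, the receptors Bmpr1a and Bmpr2, and the target genes Id1, Id2 and Id3. They were chosen by gene symbol, with earlier results of these data known, among 19938 genes with a single-symbol probe set on the array. For a gene with several probe sets the brightest on average would be taken, but each of these 9 genes had 1, so signal level decided nothing. Grem1 was already known as one of the most reduced genes of the Daxx arrays, so its change against vector is given as a description, with no p, and the shares set beside those of all genes leave it out.

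The study put Daxx, a histone chaperone and transcriptional regulator, back into mouse embryonic fibroblasts of Daxx knockout animals and asked which genes act downstream of it. All 8 arrays carried RNA of Daxx knockout fibroblasts of the FVB/N background: 2 labelled DaxxA and 2 labelled DaxxB from cells complemented with Daxx, and 4 from cells complemented with vector. Cells grew in medium with 10% fetal bovine serum and were harvested 24 hours after seeding, and the labels name no BMP as added. The letters A and B are unexplained in the labels, as are the way Daxx was delivered, whether a line was clonal and whether replicates came from separate cultures. What the p-values measure is thus array-to-array spread, which may be technical.

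BMPs are secreted ligands of the TGF-beta superfamily. They bind pairs of type I and type II receptor kinases, which phosphorylate Smad1, Smad5 and Smad9; these enter the nucleus with Smad4. Among the genes they switch on are those of the Id proteins, which lack a DNA-binding region and hold E proteins away from DNA. Secreted antagonists such as gremlin and follistatin keep ligands from their receptors, and in mesenchymal cells the balance of ligand and antagonist bears on bone, cartilage and fat formation.

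Values are log2 signals of a gene's probe set, and changes are differences of Daxx minus vector arrays in log2 units, with their standard error (SE), except where another pair of groups is named. A gene was called when its limma p, adjusted by Benjamini-Hochberg over all 19938 genes, was below 0.05. Vector replicate 2 stood apart from the other arrays: its interquartile range was 2.79, against 3.31 to 3.39 in the other 7, and 1027 olfactory receptor genes, taken here as a gauge of background, had a median of 5.21 on it, against 4.65 to 4.70. Results are therefore given on 8 arrays and on 7 arrays without it. The Daxx probe set itself did not separate the groups, at 7.23 to 7.46 in Daxx arrays and 6.85 to 7.34 in vector arrays, so every direction rests on the labels. Of 12 fibroblast markers 11 lay above the 95th percentile of the olfactory receptor genes, and so did 5 of 5 smooth muscle, 2 of 6 epithelial, 2 of 5 blood, 2 of 5 cartilage and bone, and 0 of 5 endothelial markers, and 2 of 4 each for skeletal muscle, adipocytes and neural cells.

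Both BMP ligand genes and Grem1 had lower signals in Daxx arrays, by 2.05-fold for Bmp2, 2.28-fold for Bmp4 and 3.46-fold for Grem1. The other 6 genes were lower by 1.04-fold to 1.23-fold and were not called on 8 arrays. Of the 8 genes other than Grem1, 2 were called on 8 arrays (25%), against 4.52% of all genes, and 6 on 7 arrays (75%), against 12.8% of all genes. Every called one was lower in Daxx arrays, and 2.73% of all genes were called lower on 8 arrays and 7.57% on 7. In 6 of these 8 genes all 4 Daxx values lay below all 4 vector values, which held for 6.79% of all genes. The exceptions were Bmpr2 and Id3.

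**Figure D1:**
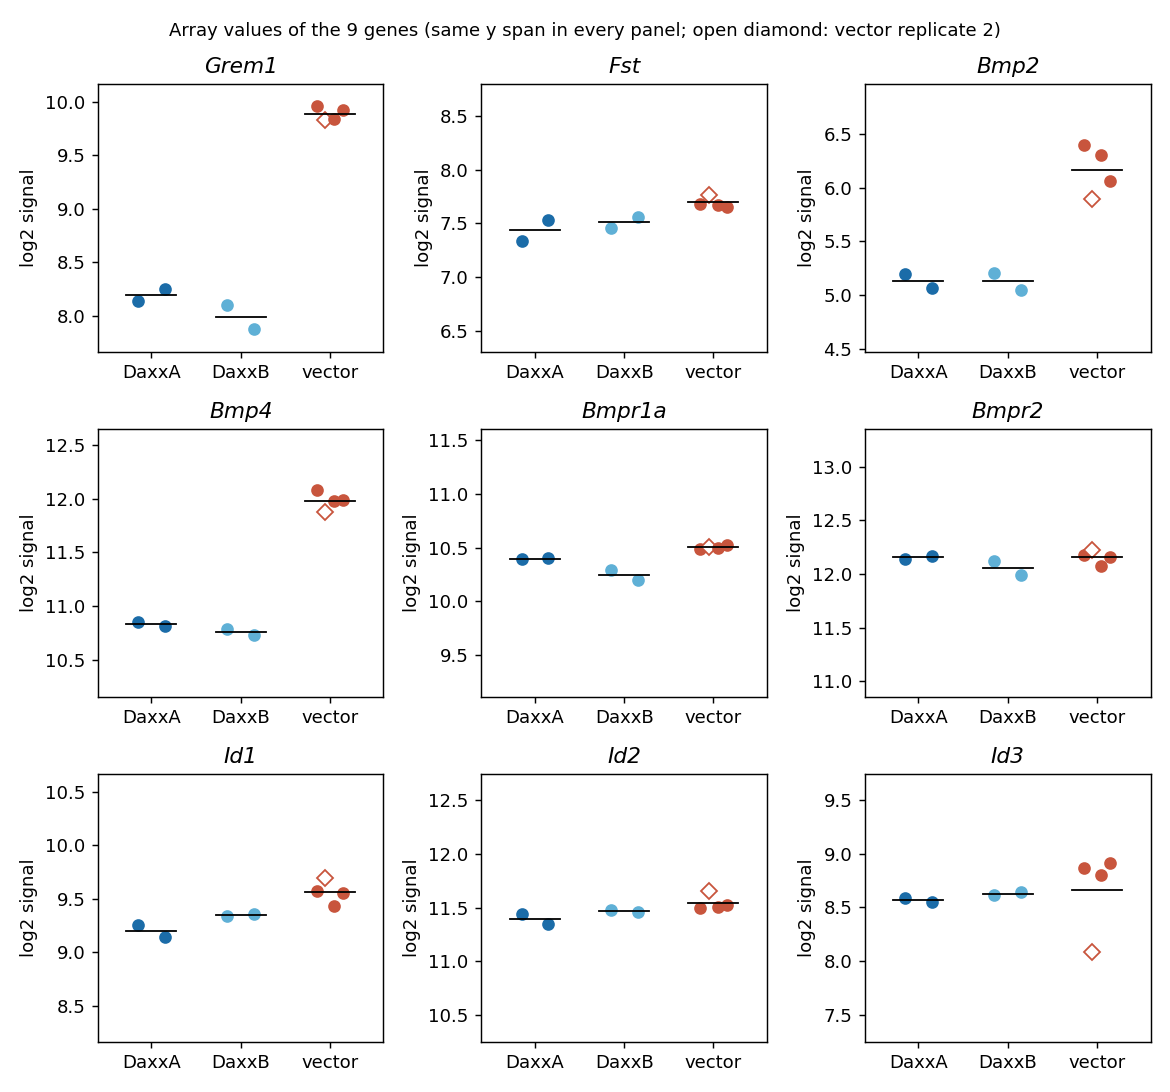
Log2 signal (y axis) of the 9 genes on each array, by group (x axis), with the same y span in every panel; points are arrays, black lines are group means and the open diamond is vector replicate 2. Grem1, Bmp2 and Bmp4 show a wide gap between Daxx and vector arrays, and Id1 and Id2 a narrow one. For Id3 vector replicate 2 lies at 8.08, below every other array, so the groups overlap.

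Bmp4, a ligand that patterns mesoderm and drives mesenchymal differentiation, read 10.85 and 10.81 in the DaxxA arrays, 10.79 and 10.73 in the DaxxB arrays, and 12.08, 11.88, 11.98 and 11.99 in the vector arrays. The groups were separated by more than the spread within either. The change was -1.19 (SE 0.0598, 95% interval -1.32 to -1.05, limma adjusted p = 2.02e-05, n = 4 and 4), and -1.22 on 7 arrays. Counted from the most reduced of all genes, Bmp4 held place 29.

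Bmp2, a close relative of Bmp4 that induces bone, read 5.19 and 5.07 in the DaxxA arrays, 5.21 and 5.04 in the DaxxB arrays, and 6.40, 5.89, 6.30 and 6.07 in the vector arrays. All Daxx values lay below all vector values, and the vector arrays were spread more widely than the Daxx arrays. The change was -1.04 (SE 0.109, 95% interval -1.29 to -0.79, limma adjusted p = 0.001), and -1.13 on 7 arrays. In Daxx arrays 76.5% of the olfactory receptor genes had a lower mean than Bmp2, against 95.5% in vector arrays, so its signal in Daxx arrays was near background. Differences this close to background are compressed by the RMA method. Bmp2 was also the 1 member removed by a filter at the 95th percentile of those genes.

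Grem1, which encodes the secreted antagonist gremlin that binds BMP2 and BMP4, read 8.14 and 8.26 in the DaxxA arrays, 8.11 and 7.88 in the DaxxB arrays, and 9.96, 9.83, 9.83 and 9.92 in the vector arrays. The nearest Daxx and vector arrays lay further apart than the whole range of either group. The change was -1.79 (SE 0.0833), and counted from the most reduced of all genes Grem1 held place 3. In bulk RNA, fewer cells using a gene and less RNA per cell cannot be told apart, here or for the other genes.

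The promoters of Grem1 and Bmp4 are shown because these genes were the lowest members of their roles, and that of Id3 because Id genes are direct targets of BMP-activated Smads. Each is the 250 bases before the annotated start, 5′ to 3′ on the gene's strand, from RefSeq on GRCm38.p6. Capitals mark GGCGCC, the GC-rich letters that Smad1 and Smad5 bind, and the Smad box GTCTG or its reverse complement CAGAC.
Grem1, chr2:113758649-113758898, minus strand: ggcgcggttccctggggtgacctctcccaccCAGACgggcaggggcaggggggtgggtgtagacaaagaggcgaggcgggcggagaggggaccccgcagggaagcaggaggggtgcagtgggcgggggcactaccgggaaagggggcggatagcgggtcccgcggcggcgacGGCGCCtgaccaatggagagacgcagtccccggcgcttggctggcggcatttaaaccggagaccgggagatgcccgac
Bmp4, chr14:46390670-46390919, minus strand: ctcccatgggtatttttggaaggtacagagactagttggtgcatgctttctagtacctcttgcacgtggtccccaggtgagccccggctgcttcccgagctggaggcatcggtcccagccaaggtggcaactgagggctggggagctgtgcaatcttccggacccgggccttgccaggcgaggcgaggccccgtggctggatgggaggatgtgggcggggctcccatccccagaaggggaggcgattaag
Id3, chr4:136143572-136143821, plus strand: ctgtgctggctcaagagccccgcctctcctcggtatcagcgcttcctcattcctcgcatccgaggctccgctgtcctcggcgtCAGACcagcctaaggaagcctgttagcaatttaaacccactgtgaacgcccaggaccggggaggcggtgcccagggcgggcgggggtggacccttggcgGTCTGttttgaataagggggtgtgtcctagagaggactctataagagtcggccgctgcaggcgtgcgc

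The Grem1 window held 1 CAGAC, starting at -219, and 1 GGCGCC, starting at -78, counted back from the annotated start. The Id3 window held CAGAC at -167 and GTCTG at -68. The Bmp4 window held neither, and the windows of Bmpr1a, Bmpr2 and Id2, which are not printed, held no Smad box. Across all 32851 promoter windows of this length, searched on both strands, 9.59% held GGCGCC and 42.2% held a Smad box. A composite of GGCGCC and, after a gap of any 5 bases, GTCT was in 0.07% of windows and in 0 of the 6 members' windows searched. GGCGCC was also in the windows of Bmpr1a (-198), Bmpr2 (-105) and Id2 (-231), genes that were not called on 8 arrays. G and C made up 62.8% to 78.8% of the 6 windows searched. The 9.59% is a share of all windows, not of windows with a like content of G and C. Promoters of Bmp2, Fst and Id1 were not analysed here. These matches are letters in a window, not binding sites.

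Fst, which encodes follistatin, an antagonist chiefly of activins that also binds BMPs, read 7.34 and 7.53 in the DaxxA arrays, 7.46 and 7.56 in the DaxxB arrays, and 7.68, 7.77, 7.67 and 7.66 in the vector arrays. The groups did not overlap, though the gap was small beside the spread of the Daxx arrays. The change of -0.22 (SE 0.0633, 95% interval -0.37 to -0.08) was not called on 8 arrays (limma adjusted p = 0.1) and was on 7 (-0.20, limma adjusted p = 0.0438).

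Bmpr1a, a type I receptor for BMP2 and BMP4, read 10.39 and 10.40 in the DaxxA arrays, 10.29 and 10.20 in the DaxxB arrays, and 10.49 to 10.52 in the vector arrays. Its 4 vector values were almost the same, and the DaxxB arrays were the lowest. The change was -0.19 (SE 0.0588, 95% interval -0.32 to -0.05, limma adjusted p = 0.134), and limma gave an adjusted p of 0.0495 on 7 arrays. Bmpr2, a type II receptor for BMPs, read 12.14 and 12.17 in the DaxxA arrays, 12.12 and 11.99 in the DaxxB arrays, and 12.07 to 12.22 in the vector arrays. These groups overlapped, and the 95% interval of its change, from -0.19 to 0.09, leaves room for a fall of up to 0.19 but for no change of the size seen in the ligands.

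The Id genes, the targets whose transcripts follow BMP signalling in many cells, differed far less than the ligands. Id1 read 9.25 and 9.14 in the DaxxA arrays, 9.34 and 9.36 in the DaxxB arrays, and 9.57, 9.70, 9.44 and 9.56 in the vector arrays. All Daxx values lay below all vector values. The change of -0.29 (SE 0.0744, 95% interval -0.46 to -0.12) was not called on 8 arrays (limma adjusted p = 0.0666) and was on 7 (-0.25, limma adjusted p = 0.023).

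Id2 read 11.44 and 11.35 in the DaxxA arrays, 11.48 and 11.46 in the DaxxB arrays, and 11.50, 11.65, 11.51 and 11.52 in the vector arrays. Vector replicate 2 was the highest array, and the other vector arrays lay close above the Daxx arrays. The change was -0.11 (SE 0.0569, 95% interval -0.24 to 0.02), with a limma adjusted p of 0.408 on 8 arrays and 0.322 on 7.

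Id3 read 8.59 and 8.55 in the DaxxA arrays, 8.62 and 8.64 in the DaxxB arrays, and 8.86, 8.08, 8.80 and 8.91 in the vector arrays. Vector replicate 2 alone put the groups into overlap. With it the change was -0.07 (SE 0.168, 95% interval -0.45 to 0.32, limma adjusted p = 0.866). Without it the change was -0.26 (SE 0.0452, 95% interval -0.36 to -0.16, limma adjusted p = 0.00372), a 1.20-fold lower signal. On the same array Id1 and Id2 had their highest values of all 8 arrays, so the Id genes did not move together there.

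DaxxA and DaxxB arrays were then set apart, in a fit of 3 groups that share 1 estimate of spread. Both comparisons use the same 4 vector arrays. On 8 arrays Bmp2 and Bmp4 were called lower in each, as were 1.45% of all genes for DaxxA and 1.92% for DaxxB. Bmp4 changed by -1.15 in DaxxA (limma adjusted p = 0.000539) and by -1.22 in DaxxB (limma adjusted p = 0.000403). Bmp2 changed by -1.04 in DaxxA (limma adjusted p = 0.0152) and by -1.04 in DaxxB (limma adjusted p = 0.0127). The call of Bmp2 was lost in 5 of 16 alternatives for DaxxA (limma adjusted p up to 0.214) and in 4 of 16 for DaxxB (up to 0.187), among them those that left out an array of the same group. Grem1 differed from vector by -1.68 in DaxxA and by -1.89 in DaxxB.

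On 7 arrays Fst, Id1 and Id3 were called in DaxxA besides both ligands, all lower, where 6.8% of all genes were called lower. Bmpr1a and Id3 were called in DaxxB besides both ligands, again all lower, where 9.53% of all genes were. Id1 changed by -0.33 in DaxxA (limma adjusted p = 0.00437) and by -0.17 in DaxxB (limma adjusted p = 0.059). Bmpr1a changed by -0.11 in DaxxA (limma adjusted p = 0.193) and by -0.26 in DaxxB (limma adjusted p = 0.00387).

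The difference between DaxxA and DaxxB was itself tested, and limma called 0 of the 9 genes on 8 arrays, as well as 0 of all genes, with 0 of the 9 and 846 of all genes at an unadjusted p below 0.05. Differences of DaxxA minus DaxxB ran from -0.15 (Id1, 95% interval -0.38 to 0.07) to 0.21 (Grem1, 95% interval -0.02 to 0.44). For Bmp4 the difference was 0.07 (95% interval -0.12 to 0.27) and for Bmp2 0.00 (95% interval -0.39 to 0.39). On 7 arrays 0 of the 9 genes and 2.15% of all genes were called, and 3 of the 9 (Grem1, Bmpr1a and Id1) had an unadjusted p below 0.05, as did 4445 of all genes. The different calls of Id1 and Bmpr1a in DaxxA and DaxxB are therefore not shown to be a difference between them.

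**Figure D2:**
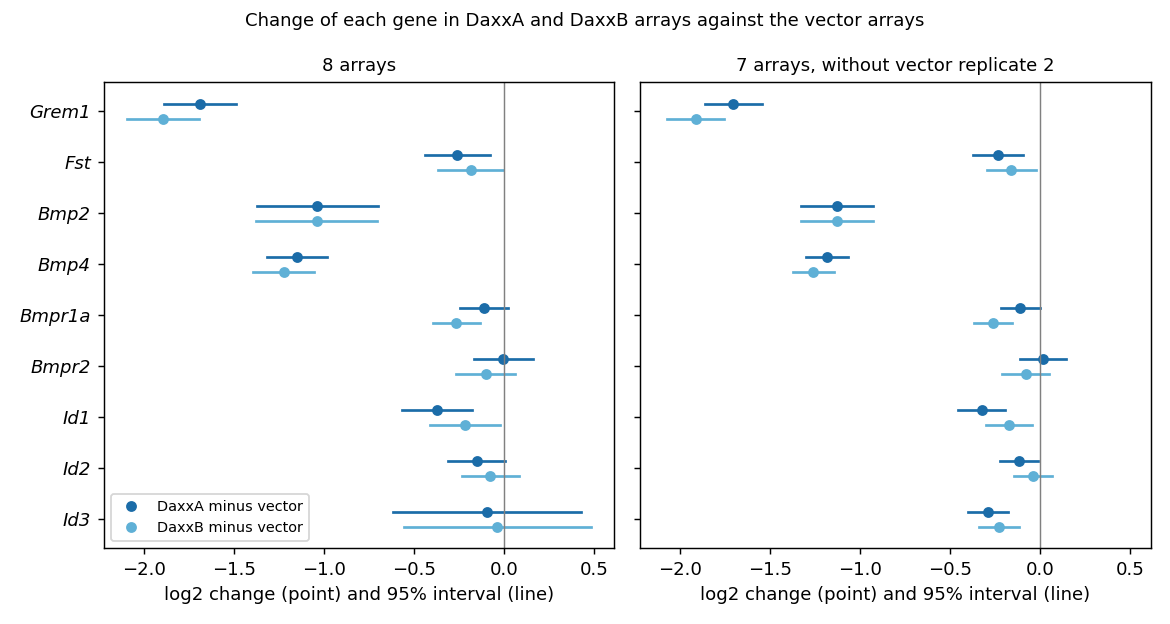
Log2 change (x axis; point, with a line for the 95% interval) of the 9 genes (y axis) in DaxxA and DaxxB arrays against the vector arrays, on 8 arrays (left) and without vector replicate 2 (right). The intervals of Grem1, Bmp2 and Bmp4 lie well below 0 in both panels, and the interval of Id3 is the widest on the left and lies below 0 on the right.

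Other genes of the pathway were counted from lists by role. Of 75 genes, the 9 included, 72 were measured. Among the 63 that are not members, 6 were called lower and 1 higher on 8 arrays (11.1%, against 4.52% of all genes), with a median change of -0.05 where the median of all genes was -0.03. On 7 arrays 12 were called lower and 2 higher (22.2%, against 12.8% of all genes), with a median of 0.00 where the median of all genes was 0.02. The 2 kinds of Daxx array differed in these counts on 7 arrays. In DaxxA minus vector 16 were called lower and 2 higher (28.6%, against 11.3% of all genes). In DaxxB minus vector 12 were called lower and 12 higher (38.1%, against 20.5% of all genes), with a median of 0.03. The lists were also chosen with earlier results of these data known, so these shares are a description and not a test.

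Among the 16 measured antagonists other than Grem1, 3 were called lower on 8 arrays, 0 higher and 13 neither, where 2.73% of all genes were called lower. These were Chrdl1, a chordin-like BMP antagonist, at 7.67 to 7.78 in Daxx arrays and 8.25 to 8.33 in vector arrays (1.47-fold lower, limma adjusted p = 0.000464), Crim1, a membrane protein with BMP-binding cysteine-rich repeats (1.40-fold lower, limma adjusted p = 0.0013), and Fstl1, a secreted follistatin-like glycoprotein (1.29-fold lower, limma adjusted p = 0.00364). Bmper, a secreted BMP-binding protein, read 7.22 to 7.42 in the Daxx arrays, against 7.66 to 7.71 in vector replicates 1, 3 and 4 and 7.18 in vector replicate 2, and was called on 7 arrays only (1.30-fold lower, limma adjusted p = 0.00107). On 7 arrays 5 of the 16 were called, all lower (31.2%), where 7.57% of all genes were called lower. That direction was not shared by every call with the Daxx arrays set apart. In DaxxA minus vector 6 were called lower and 0 higher on 7 arrays, where 11.3% of all genes were called. In DaxxB minus vector 4 were called lower and 3 higher, where 20.5% of all genes were called.

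Of 16 ligands, Bmp2 and Bmp4 were the only ones called on 8 arrays. Bmp7, a ligand of kidney and eye development, was called higher on 7 arrays (1.20-fold, limma adjusted p = 0.0112), with 6.50 to 6.71 in Daxx arrays, against 6.31 to 6.40 in vector replicates 1, 3 and 4 and 6.69 in vector replicate 2.

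Of 11 receptors and co-receptors 1 was called on 8 arrays (9.09%), where 4.52% of all genes were called. This was Bambi, a pseudoreceptor without a kinase that dampens signalling (1.27-fold lower, limma adjusted p = 0.0493). Of 8 Smads and Smad ubiquitin ligases 1 was called (12.5%), Smad6, an inhibitory Smad (1.29-fold lower, limma adjusted p = 0.0377). Both genes are known to be induced by BMP signalling, but the cause of their lower signals was not tested. With DaxxA and DaxxB set apart, 0 receptors and 0 Smads were called on 8 arrays, where 1.97% and 2.69% of all genes were. Smad7, another inhibitory Smad, read 8.04 to 8.21 in Daxx arrays and 7.87 to 8.03 in vector arrays, and was not called. Rgma, a BMP co-receptor (1.20-fold lower, limma adjusted p = 0.00728), and Smad1 (1.13-fold lower, limma adjusted p = 0.0356) were called on 7 arrays only. There 3 of the 11 (27.3%) and 2 of the 8 (25%) were called, where 12.8% of all genes were.

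Of 11 measured target genes 0 were called on 8 arrays by limma, with 2 at an unadjusted p below 0.05, and 10 of the 11 had a value below 0, as had 58.2% of all genes. The other was Alpl, which read 7.65 and 7.51 in the DaxxA arrays, 7.98 and 7.91 in the DaxxB arrays, and 7.45 to 7.66 in the vector arrays. On 7 arrays 4 were called, all lower, where 7.57% of all genes were called lower: Id1, Id3, Id4, the fourth Id gene (1.33-fold, limma adjusted p = 0.00998), and Atoh8, a transcription factor induced by BMPs (1.23-fold, limma adjusted p = 0.00795). On 7 arrays DaxxA minus vector had 6 targets called lower and 0 higher, where 11.3% of all genes were called. DaxxB minus vector had 3 lower and 1 higher, where 20.5% of all genes were called. In DaxxA minus DaxxB 1 target was called lower, where 2.15% of all genes were called. Atoh8 read 7.94 to 8.19 in Daxx arrays, against 8.36 to 8.44 in vector replicates 1, 3 and 4 and 7.79 in vector replicate 2, the pattern of Id3. Tcf4, an E protein that Id proteins bind, was 1.15-fold lower on 7 arrays (limma adjusted p = 0.00635).

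Among the activin and inhibin subunits, which follistatin chiefly concerns, Inhba, the subunit of activin A, was higher in Daxx arrays (10.52 to 10.70, against 10.24 to 10.38 in vector arrays, 1.27-fold, limma adjusted p = 0.0139) and Inha, the inhibin alpha subunit, was lower (1.29-fold, limma adjusted p = 0.0208). Of the 3 astacin proteases of the Bmp1 family limma called 0 on either set of arrays, with 1 at an unadjusted p below 0.05 on each.

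**Figure D3:**
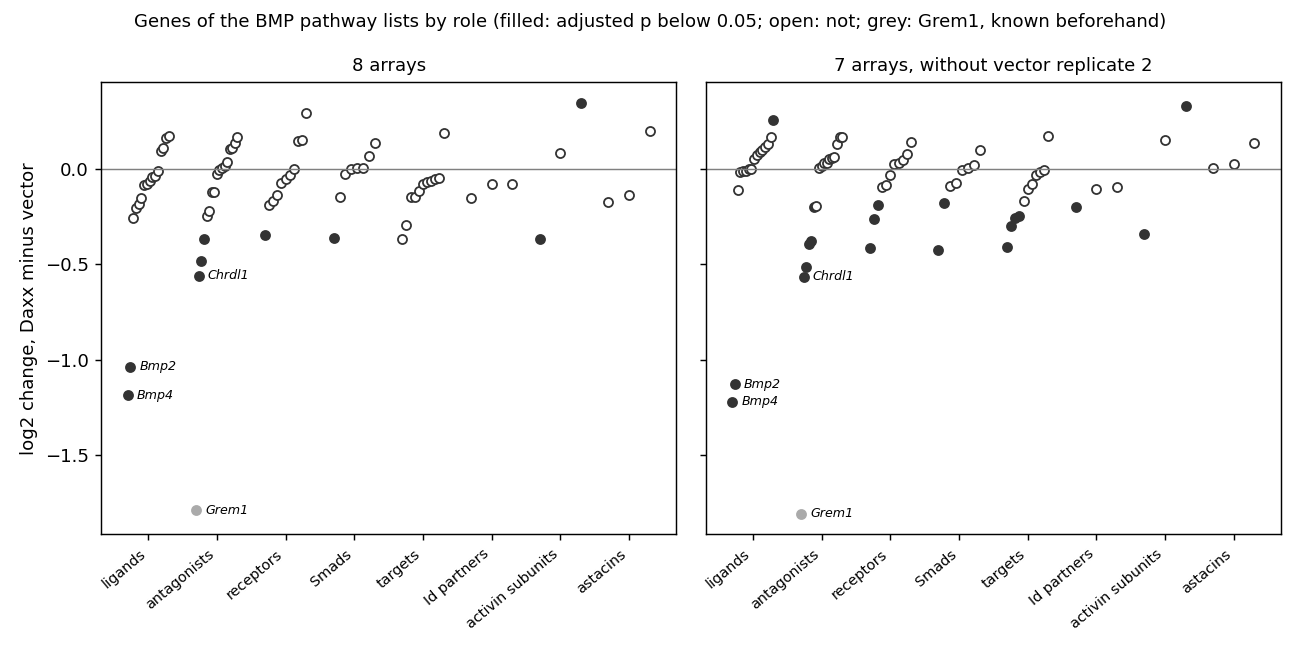
Log2 change, Daxx minus vector (y axis), of the measured BMP pathway genes by role (x axis), on 8 arrays (left) and 7 arrays without vector replicate 2 (right); each point is a gene, filled when its adjusted p was below 0.05, with Grem1 in grey because its change was known beforehand. Grem1, Bmp4 and Bmp2 lie below every other gene of the lists, at -1.79, -1.19 and -1.04 on the left.

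**Figure D4:**
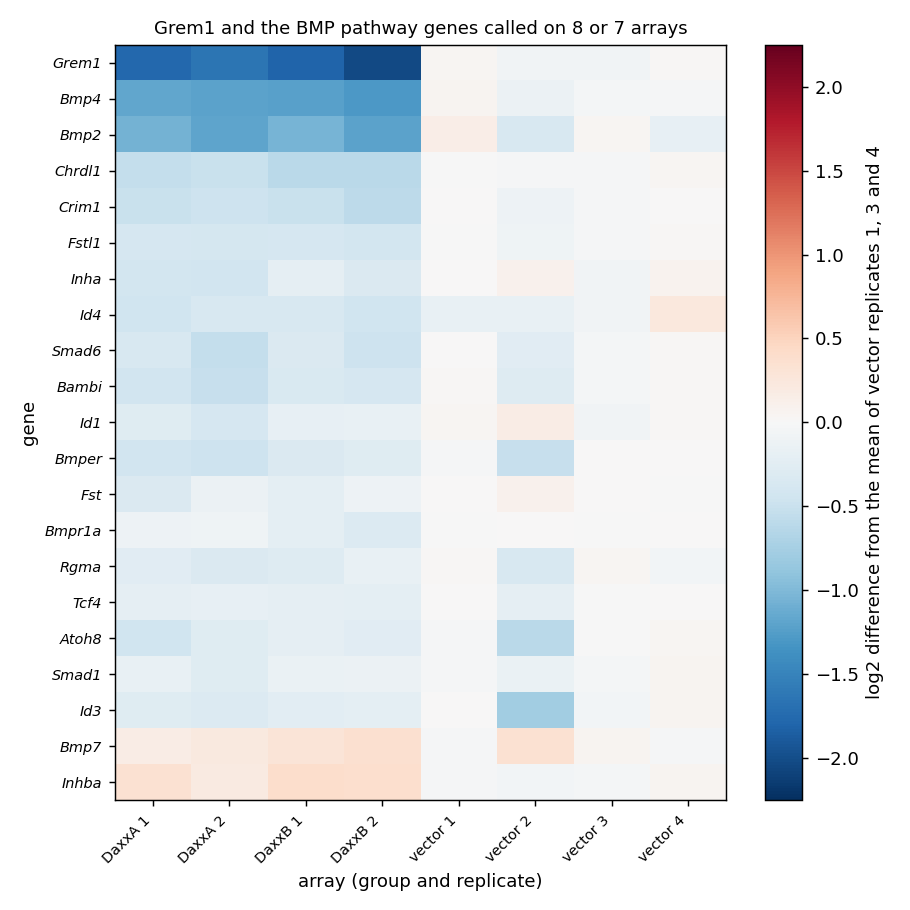
Log2 difference (colour) of each array (columns) from the mean of vector replicates 1, 3 and 4, for Grem1 and the 20 other pathway genes called on 8 or 7 arrays (rows). Vector replicate 2 is lower than the other vector arrays for Id3, Atoh8 and Bmper and higher for Bmp7.

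Over the 8 arrays, the genes whose values ran most like those of Bmp4 among 1181 genes with an SD of at least 0.3 were Ppargc1a, a coactivator of mitochondrial genes (Pearson r = 0.999), Sfrp1, a secreted Wnt antagonist (r = 0.999), and Fgfr2, a fibroblast growth factor receptor (r = 0.998). For Grem1 they were Ppargc1a (r = 0.998), Fgfr2 (r = 0.998) and Osr1, a transcription factor of mesenchyme (r = 0.997). For Bmp2 they were Gbp7, a guanylate-binding protein (r = 0.989), Hoxb13, a homeobox factor (r = 0.988), and Adamts1, a matrix protease (r = 0.988). The arrays fall into 2 clusters for all of these genes, so the correlations, given with no p, chiefly record that each was lower in the Daxx arrays.

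Some marker genes of fibroblasts and of smooth muscle also differed between the groups. The mean of the 12 fibroblast markers was 9.03 to 9.18 in Daxx arrays and 9.45 to 9.47 in vector arrays. Of them 4 were called lower (Pdgfra, Pdgfrb, Prrx1 and Dcn), 1 higher (Col1a2) and 7 neither, where 4.52% of all genes were called. Prrx1, a transcription factor of limb mesenchyme, was 2.10-fold lower. Of 5 smooth muscle markers, whose mean was 7.88 to 8.02 in Daxx arrays and 7.60 to 7.82 in vector arrays, 2 were called higher on 8 arrays, Tagln (1.97-fold) and Acta2 (1.31-fold). Of 33 markers of cartilage and bone, epithelium, endothelium, blood, skeletal muscle, adipocytes and neural cells limma called 0 on 8 arrays, with 1 at an unadjusted p below 0.05. On 7 arrays 1 of the 33, the cartilage marker Sox9, was called higher, and 5 fibroblast markers were called lower and 1 higher, where 12.8% of all genes were called. In DaxxB minus vector 4 of the 33 were called on 7 arrays (12.1%), all higher. In that comparison 20.5% of all genes were called in either direction and 9.53% lower. The part that these marker genes have in the BMP pathway results was not tested.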

How the data were processed

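The deposited values are log2 signals, for which the submitters' processing notes name Affymetrix Expression Console and RMA. That method subtracts background, sets arrays to a common distribution and gives 1 log2 value per probe set, which compresses differences near background. No version, library file or array build is stated there. Of 35556 probe sets, 21789 had 1 gene symbol in the platform annotation, 1621 several and 12146 none listed. Those with 1 symbol gave 19938 genes.

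The fits used lmFit and eBayes of limma 3.58.1 under R 4.3.3, with Daxx against vector as 2 conditions and DaxxA, DaxxB and vector as 3 groups. The fits were tested on simulated data. The members and gene lists were chosen with earlier results of these data known. Named genes are the 9 members, list genes called on 8 or 7 arrays, and the 3 most correlated genes of Grem1 and of each called member, without predicted genes and small RNAs. Markers, Smad7 and Alpl are named beside them. List genes without a match were not analysed here. The number of arrays limits the precision. Alternatives covered arrays left out, replicate blocks, the variance prior, array weights, normalization, a filter and the choice of probe sets.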

Additional observations from a re-analysis of the deposited data

Results flagged for a closer look

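In the vector group, 1 array lay far from the other 3 for 2 of the 9 genes, a gap that chance gives in about 1 of 20 groups. Vector replicate 2 read 8.08 for Id3, where the nearest vector array read 8.80. The same array read 11.65 for Id2, where the nearest vector array read 11.52. It is the array whose overall spread of signals was the narrowest.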

How the results depend on the processing

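Bmp4 kept its direction and call in Daxx minus vector under all 18 alternatives, from -1.22 to -1.15 (Grem1, given as a description, ran from -1.84 to -1.72), and Bmp2 under the 17 that gave a value, from -1.16 to -0.94. The filter at the 95th percentile of olfactory receptor genes gave no value for Bmp2. Of the 9 genes, 3 were called on 8 arrays in Daxx minus vector. This count and each count above 0 that follows, for the 9 genes and the wider list, includes Grem1, whose change was known beforehand. The count was 3 to 7 with single arrays left out (7 without vector replicate 2), 5 with an intensity trend and 7 with array weights. For DaxxA minus vector the count of the 9 was 3, 2 to 6 with single arrays left out (6 without vector replicate 2) and 6 with array weights. Of all genes 1.97% were called there on 8 arrays, 11.3% without vector replicate 2 and 13.6% with array weights. For DaxxB minus vector the count of the 9 was 3, 2 to 5 with single arrays left out (5 without vector replicate 2) and 5 with array weights. The shares of all genes were 2.69% on 8 arrays, 20.5% without vector replicate 2 and 21.3% with array weights. DaxxA minus DaxxB gave 0 throughout. The wider list gave 10 called genes, 6 to 21 with single arrays left out (6 without DaxxA replicate 1, DaxxB replicate 2 or vector replicate 1, and 21 without vector replicate 2), and 22 with array weights. Over all genes the 902 calls of Daxx minus vector became 162 to 3231, with 3231 under array weights.

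With the replicate number as a block, a fit that rests on the 6 arrays whose numbers are shared, 162 genes were called in Daxx minus vector, 3 of the 9 and 4 of the wider list, while DaxxA minus vector and DaxxB minus vector gave 0 of the 9 and 0 of all genes. The change of Bmp4 was then -1.15 in DaxxA and -1.22 in DaxxB. Deviations of same-numbered arrays correlated at 0.0238 to 0.162 over 2 shared numbers. In a group of 2 arrays the deviations mirror each other, so these correlations cannot decide whether same-numbered arrays were handled together.

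Id3 changed sign in Daxx minus vector, from -0.259 without vector replicate 2 to 0.017 without vector replicate 4, and was 0.127 with the replicate block. In DaxxB minus vector it was -0.231 to 0.0457 with arrays left out and 0.156 with that block, and in DaxxA minus vector 0.0985 with the block. Bmpr2 in DaxxA minus vector, at -0.003 on 8 arrays, was -0.034 to 0.016 with arrays left out, 0.0276 with array weights, 0.0203 with quantile normalization and 0.0446 with centred arrays. None of the values above 0 was called, and the cause was not tested.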
